A study of Mus musculus with 12 samples.

Results

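The genes described here are the proteasome subunits, activators and assembly factors of the mouse, taken as the protein-coding genes whose symbol begins with Psma, Psmb, Psmc, Psmd, Psme, Psmf or Psmg. Of the 49548 genes counted in each library, 50 met this rule, and 46 of them passed the filter on low counts (above 1 CPM, the count relative to the library's scaled total, in 3 or more of the libraries fitted). RNA was sequenced from the lumbar spinal cord of untreated mice at 30 days of age, as 1 poly(A)-selected library per mouse. The MFN2 group (8 mice) were hemizygous MitoCharc1 mice, line L51Ugfm/J on a B6;D2 background, with the transgene Tg(Eno2-MFN2*R94Q), and the WT group (4 mice) was labelled C57BL/6. This transgene is human MFN2 with the R94Q change that causes Charcot-Marie-Tooth disease type 2A, driven by the rat Eno2 promoter and so mainly in neurons, and the mice keep both copies of their own Mfn2. The WT mice are described as littermates in the study's methods, whereas the labels give them a C57BL/6 strain that differs from the mixed strain name of the transgenic mice.

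The proteasome is the main protease that degrades ubiquitin-tagged proteins in the cytosol and nucleus. Its core is a barrel of outer α rings (the Psma genes) and inner β rings (the Psmb genes), and some β subunits hold the cutting sites that face the inside of the barrel. A regulatory particle caps the barrel: its base of ATPases (Psmc) unfolds the substrate and its lid and ubiquitin receptors (Psmd) bind the ubiquitin chain and remove it. Other activators (Psme) and an inhibitor (Psmf1) bind the barrel ends, and dedicated chaperones (Psmg and some Psmd genes) assist assembly. In motor neurons, whose axons are long, protein turnover by this machine is studied as a part of neurodegenerative disease.

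Libraries were numbered 41 to 43 and 72 to 76 in the MFN2 group and 44 to 47 in the WT group. Counts summed to between 19359454 (library 73) and 26738930 (library 41). The labels do not say what the numbers stand for, and because no WT mouse is numbered in the seventies, a difference of the libraries 72 to 76 from WT cannot be told apart from a difference between number runs. Library 43 stood apart from the other 11 in regional markers. Forebrain genes summed to 4635 CPM there against 107 to 211 CPM elsewhere, all 8 at their highest, and caudal Hox genes to 45.4 CPM against 270.0 to 364.3 CPM, all 11 at their lowest. Motor neuron genes summed to 25 CPM in library 43 against 99.99 to 229.8 CPM elsewhere (5 of 5 at their lowest), and oligodendrocyte genes to 8236 CPM against 21828 to 33789 CPM (7 of 7 at their lowest). Neuron genes summed to 4984 CPM there against 9655 to 14157 CPM elsewhere, with 5 of 8 at their lowest, the neurofilament genes Nefl, Nefm and Nefh among them, and Syt1 and Rbfox3 at their highest. The edgeR counts of members called in comparisons that include this library are given with and without it. Libraries 43 and 73 also held Schwann cell genes (196 and 191 CPM against at most 3.24 CPM elsewhere), and library 73 had the highest sums of red blood cell genes (324 CPM against 68.4 to 203 CPM) and skeletal muscle genes (124 CPM against 1.61 to 94.9 CPM). In bulk tissue, fewer cells of a type and less RNA per cell cannot be told apart.

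Proteasome genes were expressed well above the typical gene of this tissue. In WT mice the median member was at 17.6 RPKM (CPM per kilobase of exon; interquartile range 8.0 to 27.5), against 3.97 RPKM for all genes tested, and all members together took 0.249% to 0.268% of the counts of a WT library. Levels per length were uneven between subunits that are present in equal number in the particle. The length used joins all annotated exons of a gene (1394 bases for Psmc5 and 3381 for Psmb8) and can differ from that of the expressed transcript. The order of genes by RPKM therefore depends on the annotation as well as on the counts. Psmc5, an ATPase of the base, was the highest at 102 ± 9.94 RPKM (SD, n = 4), followed by the ATPase Psmc1 at 74.4 ± 8.36 RPKM. The scaffold subunit Psmd2 stood at 51.7 ± 2.17 RPKM and the ubiquitin receptor Psmd4 at 51.6 RPKM. By role, the median level was 40.7 RPKM for the ATPases, 21.9 RPKM for the α ring, 19.4 RPKM for the constitutive β ring and 17.95 RPKM for the lid. The activators and inhibitor had a median of 7.46 RPKM, and the chaperones of the cap and of the core had medians of 6.34 and 4.70 RPKM. Lowest among the members that passed the filter were Psmb8, an inducible immunoproteasome subunit, at 1.07 ± 0.47 RPKM, and Psmg3, a core assembly chaperone, at 1.12 ± 0.22 RPKM, as the plot of RPKM by role shows. The spread between WT mice was also small, with a median coefficient of variation of 7.26% over the members against 10.1% over all genes tested.

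**Figure D1:**
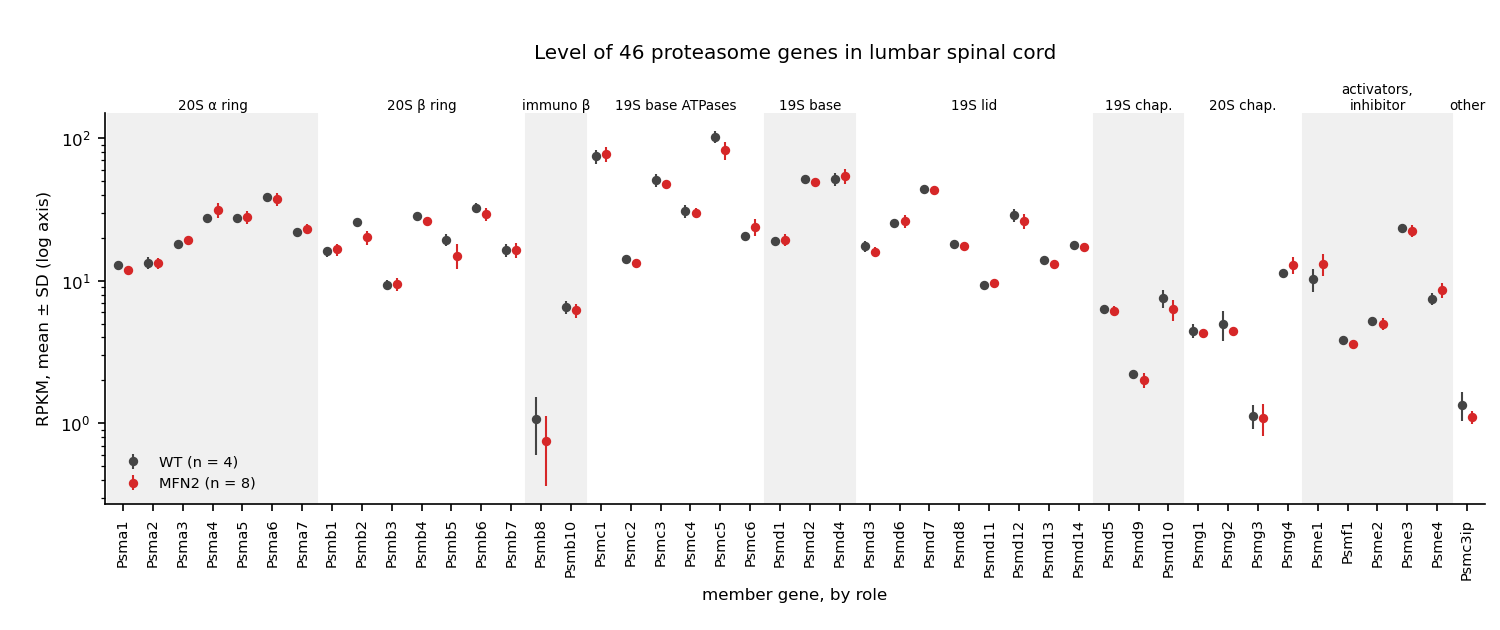
Level of the 46 proteasome genes that passed the filter, by role, as mean RPKM on a log axis in WT (n = 4, dark) and MFN2 (n = 8, red) mice; vertical lines are SDs. The ATPase Psmc5 is highest and the immunoproteasome gene Psmb8, Psmg3 and Psmc3ip are lowest, around the WT median of 17.6 RPKM.

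The 4 members that did not pass the filter are variants known from other tissues or copies of other members. Psma8, the testis variant of an α subunit, had at most 10 counts in a library, and Psmb11, the thymus-specific β subunit, had 0 to 4 counts. Psmb9, an immunoproteasome subunit, had 5 to 36 counts, and Psme2b, a copy of the activator gene Psme2, had 5 to 19 counts. Reads of Psme2 and Psme2b may have been split between them, so the values of Psme2 are uncertain. The symbol rule also takes in Psmc3ip, a meiotic recombination factor that is no proteasome subunit, at 1.35 ± 0.31 RPKM in WT.

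All 8 MFN2 mice were first set against the 4 WT mice, which is the genotype comparison of the design. None of the 46 proteasome genes passed a false discovery rate (FDR) of 0.05 by the quasi-likelihood test of edgeR (Benjamini-Hochberg adjusted), and 0% of the 15942 genes tested did. At an unadjusted p under 0.05, 4 members and 15% of all genes were found, and DESeq2 called 1 member (Psmb2, DESeq2 FDR 0.0332) and 1.25% of all genes. The members' median log2 fold change was -0.05 against 0.0038 for all genes, with 16 members above 0 and 30 below. The split was 23 and 23 when libraries were scaled by their totals alone, 13 and 33 with offsets for GC content, and 5 and 41 with the number run as a covariate.

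Psmb2, a non-catalytic β subunit, was the member with the smallest p. Its levels in WT libraries 44 to 47 were 30.6, 32.1, 29.9 and 31.4 CPM, and those of the 8 MFN2 libraries ran from 20.4 through a median of 24.8 to 29 CPM. Every MFN2 library was below every WT library, and the fitted difference was -0.35 ± 0.09 on the log2 scale (SE; unadjusted p from edgeR 0.0013, FDR 0.254). Psmb2 was the only member without overlap between the genotypes, 2.17% of the members against 1.86% of all genes (0.878% lower). Without library 43, Psmc6 did not overlap either (4.35% of the members, against 2.67% of all genes), the other 7 MFN2 libraries lying above WT. The other members with an unadjusted p under 0.05 were Psmb5, the β subunit with chymotrypsin-like activity (-0.37 ± 0.13), Psmc5 (-0.30 ± 0.11) and the activator Psme1 (0.35 ± 0.14), with edgeR FDRs of 0.278, 0.278 and 0.294. The fifth-lowest p was that of the assembly chaperone Psmd10 (-0.27 ± 0.13, edgeR FDR 0.346). For Psme1 the WT libraries had 28.2, 21.5, 22.0 and 18.4 CPM and the MFN2 libraries ran from 22.0 through 28.5 to 36.4 CPM. The genotypes overlapped for Psme1, its highest WT library lying close to the MFN2 median. Fitted values of the remaining catalytic, inducible and paired genes were -0.14 for Psmb6, 0.0012 for Psmb7, -0.51 ± 0.36 for Psmb8, -0.08 for Psmb10 and -0.07 for Psme2. Leaving out 1 library moved these last 3 to between -0.77 (without library 41) and -0.20 (without library 44), between -0.15 (without library 47) and -0.0385 (without library 45), and between -0.10 (without library 46) and -0.0236 (without library 44). Without library 43, 0 members passed the FDR (0.12% of all genes did) and 9 had an unadjusted p under 0.05, or 19.6% against 21.2% of all genes.

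**Figure D2:**
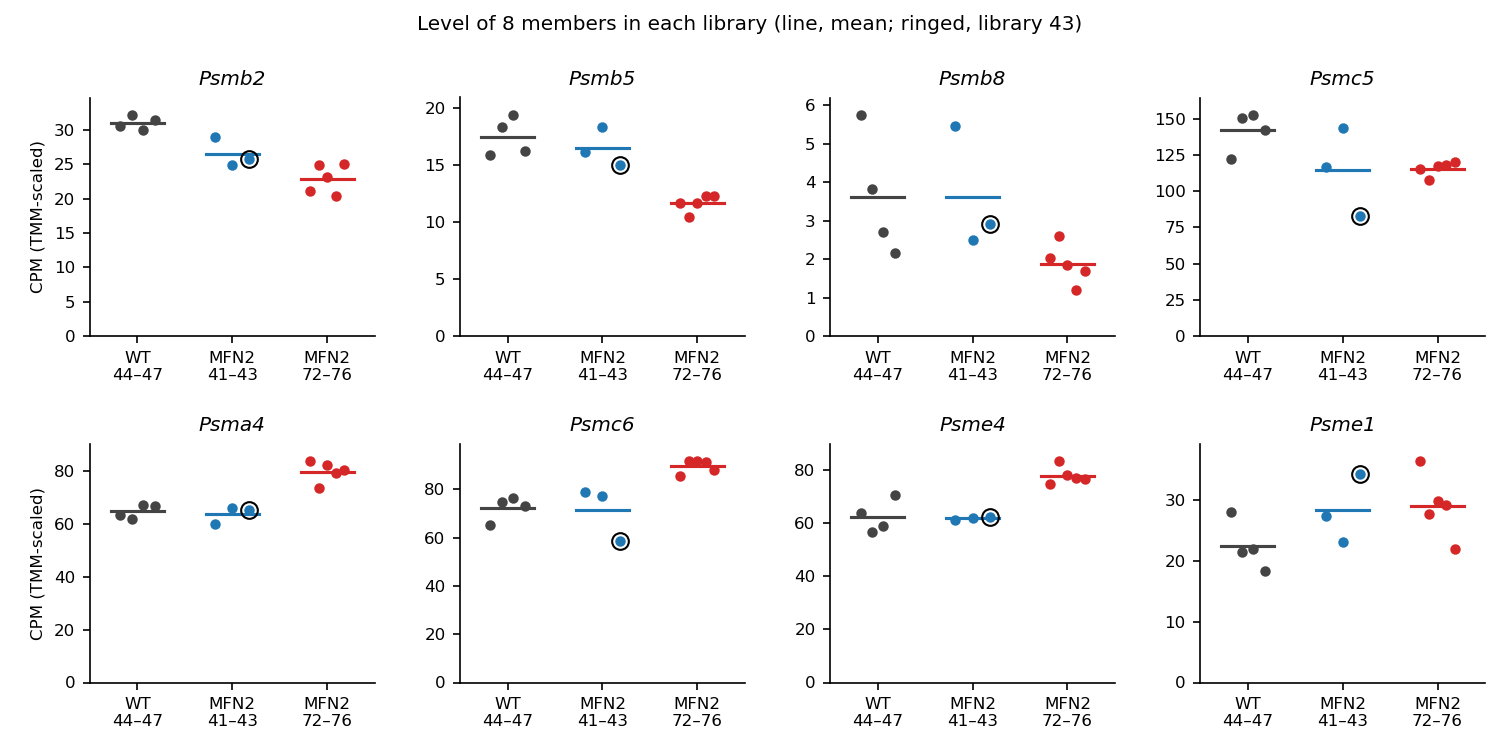
TMM-scaled CPM of 8 proteasome genes in each of the 12 libraries, by group; each point is 1 mouse, the line is the group mean and the ring marks library 43. Psmb2 is lower in all 8 MFN2 libraries than in any WT library, whereas Psmb5, Psma4, Psmc6 and Psme4 set libraries 72 to 76 apart from both other groups.

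The MFN2 libraries 41 to 43, which sit next to the WT libraries in number, were then compared with WT on their own. Again 0 of 46 members passed the FDR, against 0.00658% of 15200 genes (1 gene). Without library 43, 0 members passed, against 0.00667% of 14988 genes. On all of these libraries DESeq2 also called 0 members (0.0329% of all genes). An unadjusted p under 0.05 was found for Psmb2 (-0.22 ± 0.08) and for the α subunit Psma6 (-0.20 ± 0.08), with an edgeR FDR of 0.622 each, and for 7.12% of all genes. The lid subunit Psmd12 was next (-0.26 ± 0.13, edgeR FDR 0.622), at 66.4, 72.4 and 51.8 CPM in libraries 41 to 43, and stood at -0.15 without library 43 (edgeR FDR 0.908). Psmb5 stood at -0.08, Psmb6 at -0.09, Psmb7 at -0.18, Psmb8 at 0.01, Psmb10 at 0.05, Psme1 at 0.34 ± 0.19 and Psme2 at -0.05. The signs of Psmb8, Psmb10 and Psme2 depended on which library was left out (-0.40 to 0.32, -0.0178 to 0.0900 and -0.15 to 0.0433). Without library 43, Psme1 stood at 0.15, Psmb8 at 0.12, Psmb5 at -0.03 and Psmb6 at -0.0027, and Psma6 at -0.17, Psmb2 remaining at -0.22. The members' median was -0.05, against -0.0017 for all genes, with 10 members above 0 and 36 below. Without library 43 these numbers were -0.03, 19 and 27, and without library 42 the median was -0.11. In 4 members the groups did not overlap (Psmb2 and the lid subunits Psmd7 and Psmd13 were lower, the chaperone Psmg4 higher), which is 8.70% against 9.03% of all genes (3.2% lower and 5.84% higher). Without library 43, Psmc6 joined them on the higher side, making 10.9% of the members against 15.1% of all genes. Exons of Psmd13 and Psmb7 share 10.1% and 11.8% of their length with genes on the opposite strand (Sirt3 and Nek6).

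Library 43 held the lowest of the 12 values in 19 of the 46 members (41.3%), against 29.4% of all genes, and the highest in 0 members, against 24.9% of all genes. For Psmc5, WT libraries had 122, 151, 152 and 142 CPM and libraries 41 to 43 had 117, 143 and 82.6 CPM. The change of Psmc5 from WT was -0.32 ± 0.17 with library 43 and -0.14 ± 0.11 without it. The summed base ATPases stood at 490.1 CPM in library 43 and between 549.1 and 674.2 CPM in the other 11 libraries. The part of regional tissue composition in these low values was not tested.

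The MFN2 libraries 72 to 76 differed from WT in 13 of the 46 members, or 28.3%, against 23.8% of 15743 genes, so the share called was near that of all genes. Of these, 4 rose (8.70%, against 11.1% of all genes higher) and 9 fell (19.6%, against 12.7% lower). The members' median log2 fold change was -0.06 against -0.0007 for all genes. The same WT libraries serve as controls in this comparison and in those above. The split of directions depended on scaling: by library totals alone 16 members were called, 12 higher and 4 lower, when the median of all genes moved to 0.07 and 2822 genes were called higher and 1345 lower in place of 1746 and 2000. Leaving out library 73, 74, 75, 45 or 47 left 8, 8, 6, 7 and 8 members called, against 20.3%, 16.7%, 17.4%, 14.97% and 20.6% of all genes, so the share of all genes fell as well.

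In the core particle, 2 of 7 α subunits rose and 3 of 7 constitutive β subunits fell, whereas under scaling by library totals 4 α subunits rose (Psma3, Psma4, Psma5 and Psma7), Psmb1 rose and only Psmb2 and Psmb5 fell. These are counts within small groups, beside 11.1% of all genes called higher and 12.7% called lower, and nothing particular to a ring is read from them. Psma4 (ENSMUSG00000032301, chr9:54950790-54958030, plus strand, GRCm38) was the α subunit with the largest change. It had 63.2, 61.9, 67.4 and 66.9 CPM in WT, 60.0, 66.1 and 65.3 CPM in libraries 41 to 43, and 83.7, 73.6, 82.2, 79.4 and 80.3 CPM in libraries 72 to 76. The last 5 libraries were all above the other 7, a change of 0.30 ± 0.05 from WT (23.5% higher; edgeR FDR 0.00162). Psma3, another α subunit, rose by 0.16 on the log2 scale (edgeR FDR 0.0346), but stood at 0.03 with offsets for GC content (edgeR FDR 0.773) and was called in 2 of the 9 fits that left out 1 library. Summed over the ring, α transcripts were at 373 ± 17.3 CPM in WT, 403 ± 12.8 CPM in libraries 72 to 76 and 367, 373 and 335 CPM in libraries 41, 42 and 43.

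Psmb5 (ENSMUSG00000022193, chr14:54614119-54618022, minus strand) showed the largest fall among the constitutive subunits. Its WT libraries had 15.9, 18.4, 19.4 and 16.2 CPM, libraries 41 to 43 had 16.2, 18.3 and 15.0 CPM, and libraries 72 to 76 had 11.7, 10.5, 11.7, 12.3 and 12.3 CPM. All 5 of the latter were below all 7 of the former, and the change from WT was -0.57 ± 0.08 (-32.8% on the linear scale; edgeR FDR 0.000675). Psmb2 (ENSMUSG00000028837, chr4:126677630-126709714, plus strand) had 29, 24.8 and 25.7 CPM in libraries 41 to 43 and 21, 24.8, 23.2, 20.4 and 25 CPM in libraries 72 to 76. These MFN2 runs overlapped each other and both lay below WT, with a change of -0.43 ± 0.08 for libraries 72 to 76 (edgeR FDR 0.0025). Psmb4, a non-catalytic β subunit, fell by 0.16 on the log2 scale (edgeR FDR 0.043). The other catalytic β subunits did not pass, Psmb6 (caspase-like activity) at -0.17 with an edgeR FDR of 0.0916 and Psmb7 (trypsin-like activity) at 0.11 with an edgeR FDR of 0.291. The summed β ring had 316 ± 10.3 CPM in WT, 302 ± 10.4 CPM in libraries 72 to 76 and 305, 298 and 269.8 CPM in libraries 41, 42 and 43.

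In the regulatory particle, 2 of 6 base ATPases changed, in opposite directions, beside 23.8% of all genes called in either direction. Psmc6 (ENSMUSG00000021832, chr14:45329788-45349705, plus strand) had 65.1, 74.6, 76.5 and 72.9 CPM in WT, 78.8, 77.2 and 58.5 CPM in libraries 41 to 43, and 85.4, 91.6, 91.6, 91.2 and 88.1 CPM in libraries 72 to 76. It was higher in each of the last 5 libraries than in any other, by 0.32 ± 0.06 from WT (edgeR FDR 0.00225). With offsets for GC content Psmc6 stood at 0.02 and was not called (edgeR FDR 0.912). Psmc5 (ENSMUSG00000020708, chr11:106256154-106263120, plus strand) had 115, 108, 117, 118 and 120 CPM in libraries 72 to 76, all below the lowest WT value of 122 CPM. Its change was -0.29 ± 0.06 (edgeR FDR 0.00734), and among libraries 41 to 43 only library 42, at 143 CPM, reached the level of the higher WT libraries. None of the 3 other base subunits (the scaffolds and the ubiquitin receptor Psmd4) passed, and of the 8 lid subunits only Psmd3 did, at -0.20 (edgeR FDR 0.0231). The cap's assembly chaperones Psmd9 (-0.23, edgeR FDR 0.0391) and Psmd10 (gankyrin, -0.32, edgeR FDR 0.0427) also fell, and the third, Psmd5, did not pass. Exons of Psmd9 overlap a lincRNA on the opposite strand over 25.5% of their length. That lincRNA had 10 counts over all libraries, and whether the counting used strand is not given in the sources used here.

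Among the activators, Psme4, which binds the barrel without ATP and acts mostly in the nucleus, rose, and Psme3, the nuclear form of the ring-shaped activators, fell by 0.17 on the log2 scale (edgeR FDR 0.0306). Psme4 (ENSMUSG00000040850, chr11:30771726-30880361, plus strand) had 64.1, 56.6, 59.0 and 70.5 CPM in WT, 61.4, 62 and 62.3 CPM in libraries 41 to 43, and 74.7, 83.4, 78.3, 77 and 76.9 CPM in libraries 72 to 76. The last 5 were above all the others, by 0.32 ± 0.07 from WT (edgeR FDR 0.00686). The interferon-inducible activator genes Psme1 and Psme2, whose products form one ring, stood at 0.37 ± 0.14 and -0.07 ± 0.09, neither past the threshold (edgeR FDR 0.0752 and 0.613). None of the 4 core chaperones passed.

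**Figure D3:**
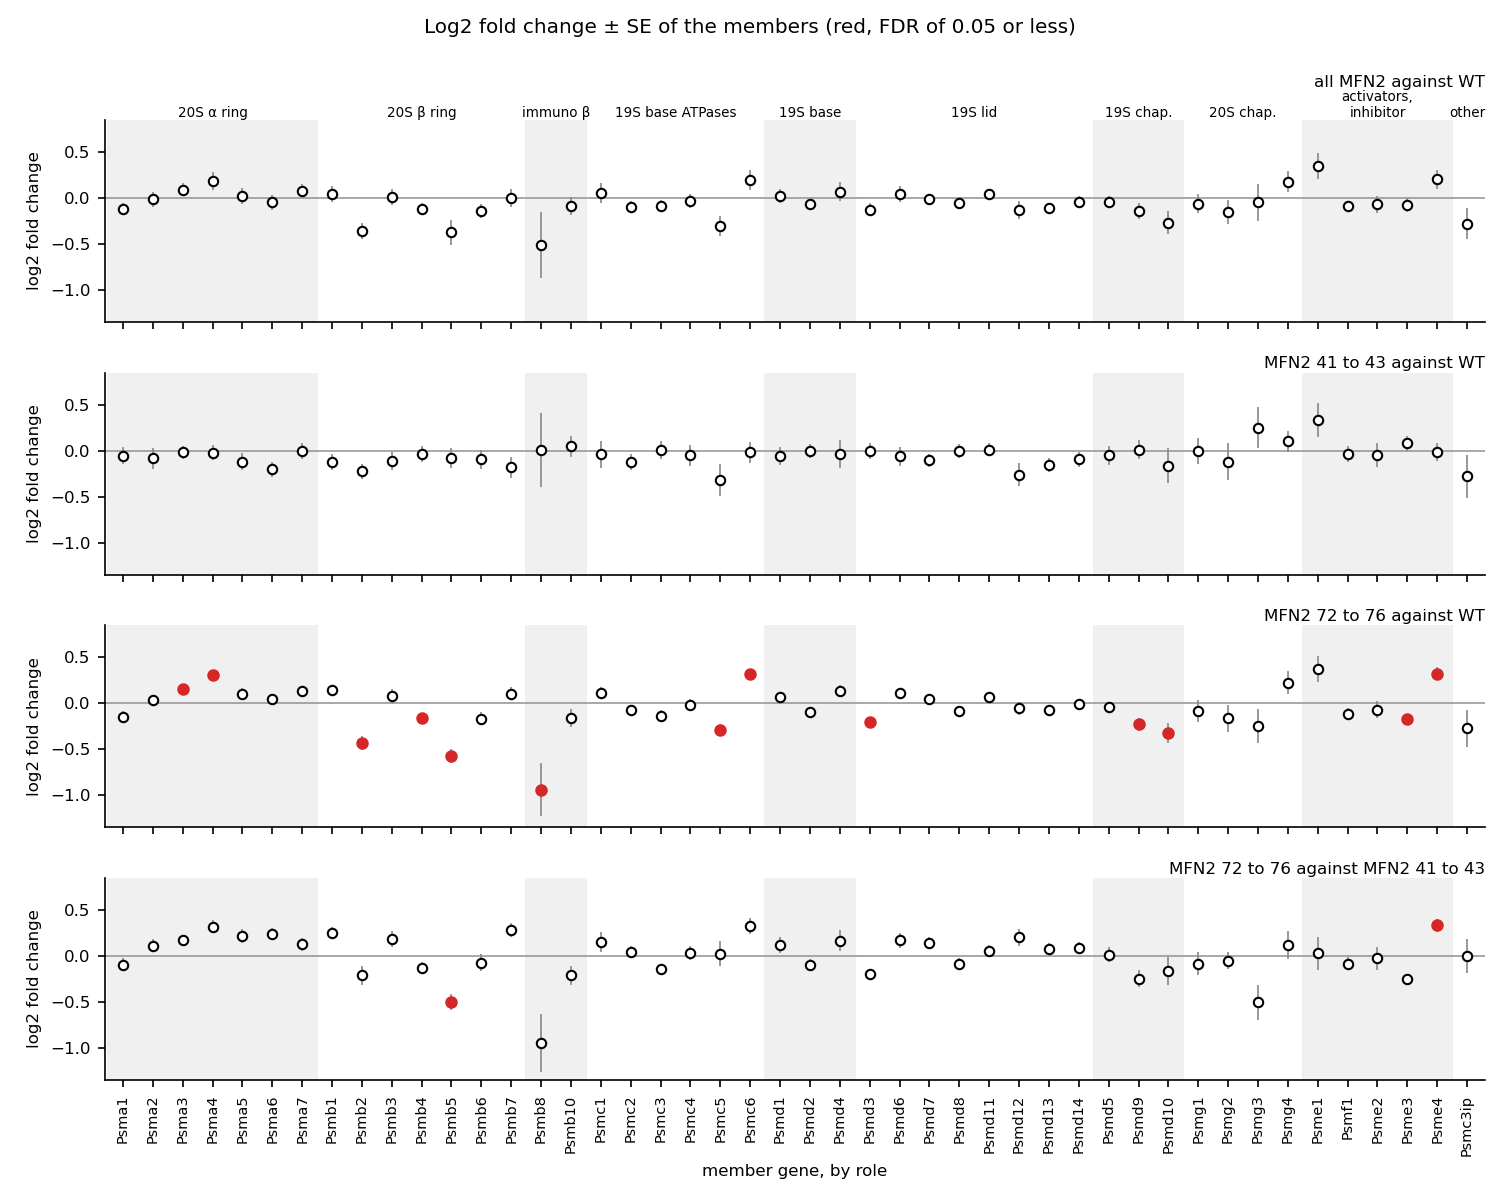
Log2 fold change of each of the 46 tested genes, by role, in each of the 4 comparisons (rows); vertical lines are SEs and red points passed an FDR of 0.05. Red points are absent from the upper rows, number 13 for libraries 72 to 76 against WT, with Psmb5 at -0.57 and Psma4 at 0.30, and are Psmb5 and Psme4 in the lowest row.

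Groups did not overlap between libraries 72 to 76 and WT in 9 members (19.6%, against 19.3% of all genes), of which Psma3, Psma4, Psmc6 and Psme4 were higher (8.48% of all genes) and Psmb2, Psmb4, Psmb5, Psmc5 and Psmd3 lower (10.9% of all genes). Of the 13 members called, Psmb2, Psmb5, Psma4, Psme4 and Psmc5 were called in all 19 alternative settings run, and Psmc6 in 18, each of them also whichever single library was left out. The remaining calls held in fewer settings: Psmd3 in 14, Psmb8 in 13, Psma3 and Psme3 in 10, Psmd10 in 9, Psmd9 in 8 and Psmb4 in 7.

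Libraries 72 to 76 also differed from the other libraries in measures unrelated to the proteasome. Median log2 fold changes from WT over all genes ran from 0.09 in the quartile of genes with the lowest GC content (of the longest transcript) through 0.02 and -0.03 to -0.09 in the quartile with the highest, whereas for libraries 41 to 43 they lay between -0.01 and 0.01. Of the members called in libraries 72 to 76, the 4 that rose were in the 2 quartiles of lower GC content (3 in the lowest), and 8 of the 9 that fell were in the 2 of higher GC content. The exception was Psmd10, in the lowest quartile. Psmc6 has 37.0% GC and Psmb5 56.6%. With offsets that remove the trend over GC content from each library, 9 members were called, against 21.6% of all genes: Psma4, Psma7, Psme1 and Psme4 were higher, and Psmb2, Psmb5, Psmb8, Psmc5 and Psmd10 lower. Psmc6 then stood at 0.02 (edgeR FDR 0.912) and Psmb5 at -0.51 (edgeR FDR 0.0013). Genes at 36% to 38% GC had a median of 0.18 and a mean of 0.25 without the offsets and a median of -0.09 with them, so the correction took more than the median from genes like Psmc6. The nuclear RNAs Malat1, Neat1 and Meg3 summed to 13720 to 20363 CPM in libraries 72 to 76, above the 8399 to 12817 CPM of WT and the 8550 to 9134 CPM of libraries 41 to 43. Malat1 was the most abundant of them, and Neat1 overlapped WT, at 16.9 to 156 CPM against 70.3 to 149 CPM. Astrocyte genes, of which Slc1a2 was the most abundant, summed to 4992 to 6246 CPM in libraries 72 to 76, below the 6777 to 7788 CPM of WT. They summed to 8589, 6081 and 5699 CPM in libraries 41, 42 and 43. Gfap had 763 to 1533 CPM in libraries 72 to 76 against 1554 to 2775 CPM in WT. There Slc1a2, Aldh1l1 and Gja1 also lay below WT, whereas Aqp4 and Slc1a3 overlapped WT. The part of these library differences in the members' changes was not tested.

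**Figure D4:**
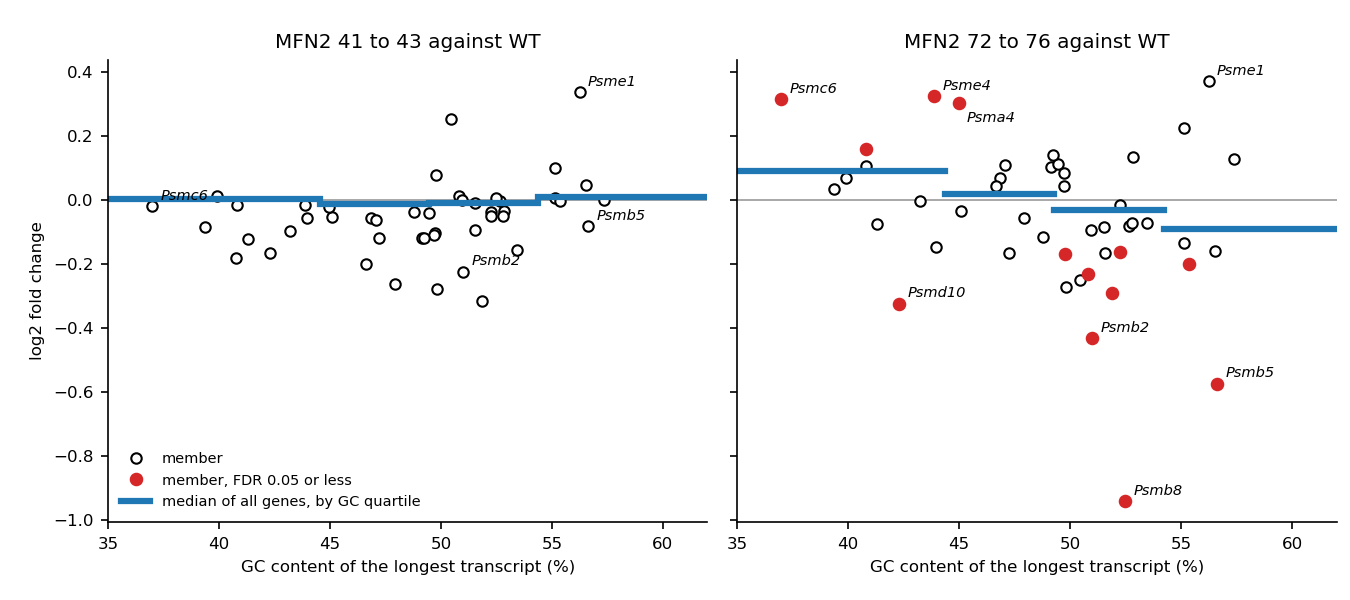
Log2 fold change of each tested proteasome gene from WT, by GC content (%) of its longest transcript, for libraries 41 to 43 (left) and 72 to 76 (right); red points passed an FDR of 0.05 and blue lines are medians of all genes by GC quartile. On the right, red points above 0 sit at low GC content (Psmc6 at 37.0%) and those below 0 mostly at high GC content (Psmb5 at 56.6%), as the blue lines step from 0.09 to -0.09, while on the left the lines stay between -0.01 and 0.01.

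The difference between the number runs was tested directly by comparing libraries 72 to 76 with libraries 41 to 43, both of them MFN2. Psmb5 (-0.50 ± 0.09, edgeR FDR 0.0346) and Psme4 (0.33 ± 0.07, edgeR FDR 0.0486) passed, which is 2 of 46 members or 4.35%, against 2.19% of 15633 genes (1.18% lower and 1% higher). Both genes differed between mice of the same genotype by about as much as from WT. In 12 members the runs did not overlap, 8 higher and 4 lower in libraries 72 to 76, which is 26.1% against 18% of all genes (8% higher, 9.96% lower). Without library 43 there were 17 (8 higher and 9 lower), or 36.96% against 34.4% of all genes. Psmb6 stood at -0.08, Psmb7 at 0.28 (edgeR FDR 0.0814), Psmb8 at -0.95 (edgeR FDR 0.124), Psmb10 at -0.21, Psme1 at 0.03 and Psme2 at -0.03, and without library 43 Psmb6 stood at -0.16 and Psme1 at 0.22. Without library 43, 8 members were called (17.4%, against 15.3% of all genes): Psma4, Psmb1, Psmb7, Psmc6 and Psme4 were higher and Psmb5, Psmd3 and Psme3 lower. Leaving out any one of the other 7 libraries left 0 members called. The shares of all genes in those fits are not given here, so no loss particular to the members is read from these counts. DESeq2 on all 8 libraries called 10 (11.5% of all genes). With the GC-content offsets 0 members and 1.97% of all genes were called. The median log2 difference of the members was 0.03 against -0.02 for all genes.

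Immunoproteasome subunits replace the catalytic β subunits in cells exposed to interferon, and in the nervous system they are found mainly in microglia. Psmb8 (ENSMUSG00000024338, chr17:34197721-34201454, plus strand), which replaces Psmb5, had 5.74, 3.83, 2.70 and 2.15 CPM in WT, 5.46, 2.49 and 2.92 CPM in libraries 41 to 43, and 2.04, 2.59, 1.85, 1.20 and 1.70 CPM in libraries 72 to 76. Libraries 72 to 76 overlapped WT, and the test gave -0.94 ± 0.29 (edgeR FDR 0.0338). Exons of Psmb8 share 14.7% of their length with an antisense RNA that had 7 counts in all. The call held in 3 of the 9 fits that left out 1 library, and in 13 of 19 alternatives in all. Psmb10, which replaces Psmb7, stood at -0.16 (edgeR FDR 0.259).

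The 8 microglia markers, of which Csf1r was the most abundant and none was at 0 in any library, summed to 97.3 to 129 CPM in libraries 72 to 76, against 135 to 188 CPM in WT and 138 to 224 CPM in libraries 41 to 43. The 10 interferon and MHC genes, of which B2m was the most abundant and none was at 0, summed to 39.9 to 63.5 CPM, against 70.8 to 124 CPM and 58.8 to 127 CPM. Psmb8 was highest in library 41 and WT library 44, the libraries in which the sum of the interferon list was also highest. B2m had 79.7 and 74.7 CPM of these sums, whereas Irf7 was at its lowest of all libraries in library 44 (0.57 CPM). In libraries 72 to 76, B2m lay below WT, whereas Irf7, Ifit1 and Ifit3 overlapped WT. The part of microglia and interferon genes in the Psmb8 values was not tested.

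As a share of the transcripts per length of each pair, Psmb8 made up 8.76%, 5.26%, 3.58% and 3.40% of Psmb8 plus Psmb5 in WT, 8.23%, 3.48% and 4.93% in libraries 41 to 43 and 4.43%, 6.18%, 4.03%, 2.53% and 3.54% in libraries 72 to 76. The groups overlapped. Both genes of the pair were lower in libraries 72 to 76 than in WT. Psmb9, which replaces Psmb6, made up 0.740% ± 0.479 (SD, n = 4) of its pair in WT and between 0.178% and 0.539% in libraries 72 to 76. Psmb10 had the largest share of its pair per length, 28.7% ± 3.89 in WT, 24.9% in libraries 72 to 76, and between 30.2% and 35.2% in libraries 41 to 43. By CPM, which is not per length, the WT shares were 16.7% for Psmb10 and 16.9% for Psmb8. The order of these pairs depends on annotated exon lengths: 1705 and 3421 bases for Psmb10 and Psmb7, 3381 and 899 for Psmb8 and Psmb5. Ranges overlapped with WT in all 3 pairs. Libraries 41 to 43 lay above libraries 72 to 76 for Psmb10 alone.

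**Figure D5:**
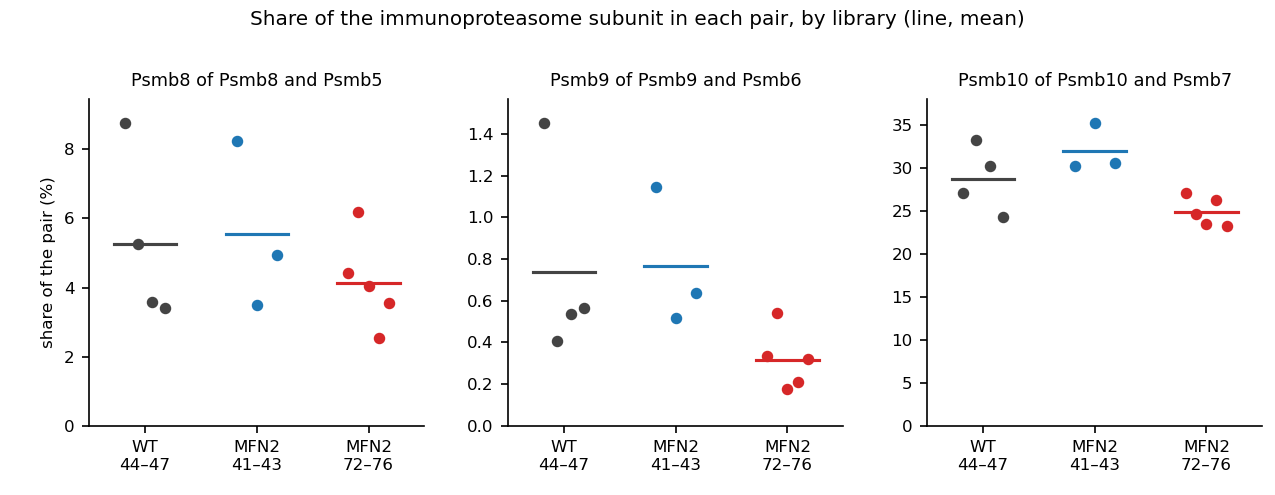
Share (%) of the immunoproteasome subunit in the RPKM sum of its pair in each library, for Psmb8, Psmb9 and Psmb10; points are mice, lines are group means and the vertical scales differ. Psmb10 makes up 23.2% to 35.2% of its pair, and WT overlaps with both MFN2 runs in every pair.

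Promoter sequences were read for members called in either direction, because transcription factors such as NF-Y and the Nrf family are known to drive proteasome genes. Of the 50 members, 42 matched a RefSeq promoter (GRCm38.p6, from 250 bases before to 50 bases after the start), in 45 windows. Psmb5 and Psmd10 are shown as members that fell and Psmc6 and Psma3 as members that rose (without the GC-content offsets only), each over a stretch before its start that holds no annotated exon, 5′ to 3′ on the gene's strand. Capitals mark CCAAT, the letters of the NF-Y motif, or its reverse complement ATTGG, and TGANNNNGC on either strand. TGANNNNGC is a loose form of the antioxidant response element, so a match need not fit the element itself. The stretches are chr14:54618023-54618245 (minus), chr14:45329574-45329787 (plus), chr12:70974373-70974620 (plus) and chrX:140956729-140956906 (minus), in the order printed.
Psmb5: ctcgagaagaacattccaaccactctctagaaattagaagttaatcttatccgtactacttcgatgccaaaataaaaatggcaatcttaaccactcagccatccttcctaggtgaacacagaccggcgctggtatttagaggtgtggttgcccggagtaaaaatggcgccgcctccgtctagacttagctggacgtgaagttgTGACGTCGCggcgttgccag
Psmc6: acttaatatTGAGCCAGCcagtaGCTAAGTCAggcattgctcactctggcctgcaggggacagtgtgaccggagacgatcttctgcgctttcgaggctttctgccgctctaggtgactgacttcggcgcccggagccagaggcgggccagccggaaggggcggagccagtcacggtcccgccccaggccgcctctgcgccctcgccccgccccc
Psma3: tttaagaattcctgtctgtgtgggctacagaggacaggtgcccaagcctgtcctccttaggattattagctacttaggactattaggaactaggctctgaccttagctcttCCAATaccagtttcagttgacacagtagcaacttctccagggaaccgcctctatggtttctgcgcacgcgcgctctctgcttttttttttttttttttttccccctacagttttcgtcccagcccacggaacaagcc
Psmd10: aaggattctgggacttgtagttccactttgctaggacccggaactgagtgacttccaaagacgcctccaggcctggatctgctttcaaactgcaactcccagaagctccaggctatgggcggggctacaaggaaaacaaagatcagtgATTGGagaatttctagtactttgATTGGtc
Psmb5 and Psmc6, which moved in opposite directions, both hold TGANNNNGC letters (1 and 2 matches), and Psma3 and Psmd10 both hold CCAAT letters (1 and 2 matches). CCAAT was found in 33.3% of the member windows against 37.4% of all 32851 windows, and TGANNNNGC in 57.8% against 41.3%. Among members called in libraries 72 to 76, CCAAT was found in 1 and TGANNNNGC in 3 of the 4 windows of genes that rose, and in 2 and 4 of the 7 windows of genes that fell. A match is a description of the letters and no evidence of binding.

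Genes around the proteasome were taken from lists of other subunits and assembly factors, transcriptional control, ubiquitin and its conjugation, and shuttle factors with the Vcp segregase, of which 54 passed the filter. None passed in all MFN2 against WT, where 7 had an unadjusted p under 0.05 (12.96%, against 15% of all genes), or in libraries 41 to 43 against WT, where 2 did (3.70%, against 7.12%). In libraries 72 to 76 against WT, 13 of 54 passed (24.1%, against 23.8% of all genes), 6 higher and 7 lower.

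Of 13 subunits and assembly factors outside the symbol rule, Adrm1, a ubiquitin receptor of the cap, rose from 34.7 ± 4.38 CPM in WT to 42.7 ± 1.54 CPM (0.31 ± 0.07, edgeR FDR 0.011). Ecpas, a proteasome adaptor, rose by 0.27 on the log2 scale. Pomp, the chaperone that matures the core, fell by 0.21, and Akirin2, which carries proteasomes into the nucleus, fell by 0.18. Subunit Sem1 (-0.03) and the deubiquitinases Usp14 (0.01) and Uchl5 (0.15, edgeR FDR 0.0586) did not pass. Of 16 genes of transcriptional control, 3 passed (18.75%, against 23.8% of all genes). Nfe2l1, the factor known to induce proteasome genes when proteasomes are inhibited, fell from 345 ± 21 to 288 ± 16.2 CPM (-0.26 ± 0.05, edgeR FDR 0.00494). Nfyc, an NF-Y subunit, rose from 24.0 ± 0.524 to 33.0 ± 0.994 CPM (0.46 ± 0.05, edgeR FDR 0.000233), and Mafk, a partner of the Nrf factors, fell by 0.35 on the log2 scale.

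Of 11 genes of ubiquitin and its conjugation, 4 passed, 2 in each direction (36.4%, against 23.8% of all genes). The stress-inducible polyubiquitin gene Ubb rose by 0.23 on the log2 scale, whereas Rps27a, a fusion of ubiquitin with a ribosomal protein, and the conjugating enzyme Ube2d3 fell by 0.15 and 0.16. Of 14 shuttle and segregase genes, Ufd1, a cofactor of Vcp, rose by 0.32, and Ubqln1, a shuttle factor, fell by 0.28. Between libraries 72 to 76 and 41 to 43, Nfyc (0.46, edgeR FDR 0.019) and Ecpas (0.29, edgeR FDR 0.0496) differed in the direction they differed from WT.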

How the data were processed

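Poly(A)-selected total RNA was made into libraries with a SMARTer kit and sequenced as paired ends, and the authors named bcl2fastq, STAR, edgeR and GRCm38.p6 in their processing notes. The deposited files hold whole-number counts per Ensembl gene, 1 file per mouse; the counting tool and whether it used strand are not given in the sources used here.

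Symbols, exon lengths and GC content came from GENCODE M21 (GRCm38), which matched 49289 genes, and promoters from RefSeq. Each comparison was fitted on every gene above 1 CPM in 3 or more of its libraries by edgeR 4.0.16 in R 4.3.3. The fit used TMM factors, the robust quasi-likelihood test and a Benjamini-Hochberg FDR of 0.05. This step was also run on simulated counts with the same dispersion for every gene. These held no outlying library and no difference between number runs, so they do not cover either feature of the data. RPKM is TMM-scaled CPM per kilobase of exon, with all annotated exons of a gene joined. Standard errors are those of the fit, and p-values measure the spread between mice. Alternatives were no filter, other filters, upper-quartile and library-size scaling, DESeq2 1.42.0, limma-voom 3.58.1, other quasi-likelihood options, the number run as a covariate and leaving out each library; GC-content offsets (spline with 5 degrees of freedom) were added after seeing the data. No libraries were duplicates.

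Members and gene lists were chosen with earlier results of these data known. The text names, in every comparison, the catalytic and immunoproteasome β subunits with Psme1 and Psme2; in all MFN2 against WT, the 5 lowest p and non-overlapping members; in libraries 41 to 43 against WT, the 3 lowest p; in the other comparisons, up to 3 members past the threshold per role with the largest change; the 3 highest and 3 lowest WT levels; members that failed the filter; and up to 3 genes per list beside Pomp, Adrm1, Sem1, Usp14, Uchl5 and Nfe2l1. Other members were named after their values were seen. The result of 1 listed gene is not reported here.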

Additional observations from a re-analysis of the deposited data

Results flagged for a closer look

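Within the MFN2 group of 8 libraries or the WT group of 4, a library was far from the others in 10 of 92 gene and group pairs. About 1 in 20, or 4.6, would be flagged by chance if pairs were independent, but members measured in the same libraries are not. The share over all genes by this rule was not taken, so nothing particular to the members is read from this count. The measure is the gap to the nearest library as a share of the group's range. Library 43 was the lowest MFN2 library in 6 of these: the α subunit Psma2 (0.798, at 39.1 CPM), the ATPases Psmc1 (0.600, at 107 CPM) and Psmc6 (0.564, at 58.5 CPM), the ubiquitin receptor Psmd4 (0.732, at 107 CPM) and the lid subunits Psmd6 (0.627, at 55.7 CPM) and Psmd12 (0.577, at 51.8 CPM). This is the library with high forebrain and low caudal Hox genes, whose part in these values was not tested. Library 42 was the highest MFN2 library for Psmb4 (0.538, at 59.6 CPM) and Psmd10 (0.681, at 12.9 CPM), and library 41 for Psmb8 (0.595, at 5.46 CPM). WT library 45 was the lowest of its group for Psma6 (0.973, at 43.9 CPM, while the other 3 had 48.7 to 48.9 CPM).

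Psmb5 and Psme4 differed between the number runs of MFN2 mice by the edgeR test of the difference itself, at -0.50 (FDR 0.0346) and 0.33 (FDR 0.0486).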

How the results depend on the processing

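All MFN2 against WT gave 0 members past the FDR except with DESeq2 (1), and the members' median of -0.05 moved to -0.0021 under scaling by library totals. Here Psmb7 changed sign with limma-voom (-0.00138), GC-content offsets (-0.0781), the number run as a covariate (-0.20) and leave-one-out (-0.0563 to 0.0561), and Psmb10 with the covariate (0.0304). In libraries 41 to 43 against WT, the median ranged from -0.108 to -0.0254 when 1 library was left out. Psmb8 turned to -0.0024 without the filter, -0.0291 with upper-quartile scaling and -0.40 to 0.32 in leave-one-out, where Psmb10 ran from -0.0178 to 0.0900 and Psme2 from -0.15 to 0.0433. In libraries 72 to 76 against WT, 6 to 15 members passed when 1 library was left out. The shares of all genes in several of these fits are given above, and nothing particular to the members is read from this range. Leave-one-out gave a median of -0.0722 to -0.0349, Psmb7 at 0.0489 to 0.162 and Psme2 at -0.11 to -0.0234. Library totals moved the median to 0.0084, and Psmb7 turned to -0.0154 with GC-content offsets.

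Between the runs, 0 members passed without the filter and with GC-content offsets (0.933% and 1.97% of all genes), 5 with upper-quartile scaling (2.38%), 4 with library totals (2.47%), 10 with DESeq2 (11.5%) and 0 to 8 in leave-one-out, and the members' median was 0.0904 and 0.10 under the 2 scalings. There Psme1 ran from -0.11 to 0.22 and Psme2 from -0.13 to 0.10 in leave-one-out. Psmb8 ran from -1.17 to -0.52, Psmb6 from -0.16 to -0.0089 and the members' median from 0.0057 to 0.0657 in the same fits. Psme2 was at 0.0317, 0.0460 and 0.0064 with upper-quartile scaling, library totals and GC-content offsets. DESeq2 called 7 of the 54 genes around the proteasome between the runs. Taken from CPM instead of RPKM, the WT shares of Psmb8, Psmb9 and Psmb10 in their pairs were 16.9%, 1.43% and 16.7%, as the genes of a pair differ in annotated exon length. The cause of the other changes was not tested.

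No paired analysis was possible because the labels name no litter or pair, although the study's methods describe the WT mice as littermates. Depth limits Psmb8 (31 to 141 counts per library), Psmg3 (47 to 120) and Psmc3ip (33 to 64). Protein sequences were not analysed here. The WT strain label limits every genotype comparison, the number runs those with libraries 72 to 76, and library 43 those that include it.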
